A study of Mus musculus with 8 samples.

Results

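The Hippo pathway was followed through 10 genes of the 42391 gene entries in the raw count matrix, namely Wwtr1 (the gene of the protein Taz), Yap1, Tead1, Tead2, Tead4, Lats1, Lats2, Ccn1, Ccn2 and Amotl2. They were taken by their symbols, and the group was chosen because Wwtr1 was lower after Septin9 siRNA in both cell types studied, that is, it was selected on the measured log2 fold change of Wwtr1. The differences between Septin9-deficient and control samples are therefore given for these genes as a description, without p-values of single genes, and the number that passed the thresholds applied to all genes is stated only beside the share of all genes. The matrix also has a row named Taz, which is the gene of tafazzin, a mitochondrial enzyme, and it was not used.

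RNA was sequenced from 8 samples in 4 groups of 2 replicates. C2C12 cells, an established mouse myoblast line, received a non-targeting siRNA (control, labelled WT) or a Septin9 siRNA and were lysed 60 h later, after 12 h in differentiation medium. Primary myoblasts, grown out of hindlimb muscle of 5 week old mice and preplated on collagen to remove fibroblasts and other non-myogenic cells, received the same siRNAs and were lysed 48 h later while proliferating. The siRNA dose for C2C12 cells was 50 nM, raised to 100 nM during the initial 5 h. A single Septin9 siRNA was used, the knockdown is transient and partial, and how many mice gave the primary myoblasts of each replicate is not given in the sources used here. The replicates stem from independent experiments, so control and Septin9-deficient samples with the same replicate number form a pair.

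The Hippo pathway is a kinase cascade that links cell contact, the cytoskeleton and growth signals to transcription. The kinases Lats1 and Lats2 phosphorylate the coactivators Yap1 and Taz, which are then held in the cytoplasm or degraded. Unphosphorylated Yap1 and Taz enter the nucleus, bind Tead transcription factors and switch on target genes such as Ccn1, Ccn2 and Amotl2. In muscle, Yap1 is known to favour the proliferation of satellite cell-derived myoblasts, and Tead factors bind the promoters of many muscle genes.

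Between 20898611 and 27223414 reads were counted on genes per sample, and the 10 genes had from 188 counts (Tead4) to 8498 counts (Ccn1) in a sample. Septin9, the target of the siRNA, was at 39.1% of its control level in C2C12 cells and at 43.2% in primary myoblasts. The myogenic markers Myod1, Myf5, Pax7, Des and Myog were detected in every sample. Their summed level, in CPM (counts scaled to the library size), was 616 to 790 in control and 882 to 1061 in Septin9-deficient C2C12 cells, and 2556 to 3515 in control and 3805 to 4544 in Septin9-deficient primary myoblasts. The sum was higher in the Septin9-deficient samples of both cell types, mainly through Des. Next came Myod1 in C2C12 cells and Myog in primary myoblasts. In primary myoblasts, however, Pax7 (85.7 and 89.4 CPM in control, 63.6 and 62.8 CPM after Septin9 siRNA) and Myf5 (46.7 and 32.3 CPM against 35.5 and 13.2 CPM) were lower in both pairs. The part of these markers in the differences described here was not tested. Markers of endothelial, immune and glial cells summed to at most 4.73 CPM each. The 5 fibroblast markers summed to 118 to 143 CPM in C2C12 cells and to between 6.55 and 437 CPM in primary myoblasts.

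Wwtr1 encodes Taz, the coactivator that shares its Tead partners with Yap1, and lies on chromosome 3 of GRCm38 from 57455644 to 57575910. In C2C12 cells its normalized expression was 174 and 230 CPM with control siRNA (replicates 1 and 2) and 110 and 165 CPM with Septin9 siRNA. In primary myoblasts it was 111 and 170 CPM (control) and 77.6 and 100.2 CPM (Septin9-deficient). In both cell types each Septin9-deficient sample lay below both control samples. The means were 67.8% of control in C2C12 cells and 63.3% in primary myoblasts, and the log2 fold changes were -0.57 ± 0.07 and -0.64 ± 0.11 (SE, 2 pairs each). These values rest on 1812 to 6175 raw counts of Wwtr1 per sample.

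The size of the difference in Wwtr1 varied between pairs together with that in Septin9. The log2 ratio of Septin9-deficient to control was -0.67 for Wwtr1 and -1.504 for Septin9 in C2C12 pair 1, and -0.48 and -1.22 in pair 2. In primary myoblasts it was -0.52 for Wwtr1 and -0.87 for Septin9 in pair 1, and -0.76 and -1.54 in pair 2. Within each cell type the pair with the lower Septin9 ratio also had the lower Wwtr1 ratio, which with 2 pairs per cell type is no more than a description.

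Yap1 (chromosome 9, 7931999 to 8004638), the closest relative of Taz, differed little. Its expression was 141 and 142 CPM (control) and 128 and 135 CPM (Septin9-deficient) in C2C12 cells, and 144 and 145 CPM (control) and 129 and 130 CPM (Septin9-deficient) in primary myoblasts. The Septin9-deficient samples lay below the controls in both cell types, at 93.1% and 89.5% of the control mean, with log2 fold changes of -0.10 ± 0.07 and -0.16 ± 0.11 (SE). Between control replicates the SD of Yap1 was 0.759 CPM in C2C12 cells and 0.726 CPM in primary myoblasts, whereas that of Wwtr1 was 39.6 and 41.5 CPM.

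**Figure D1:**
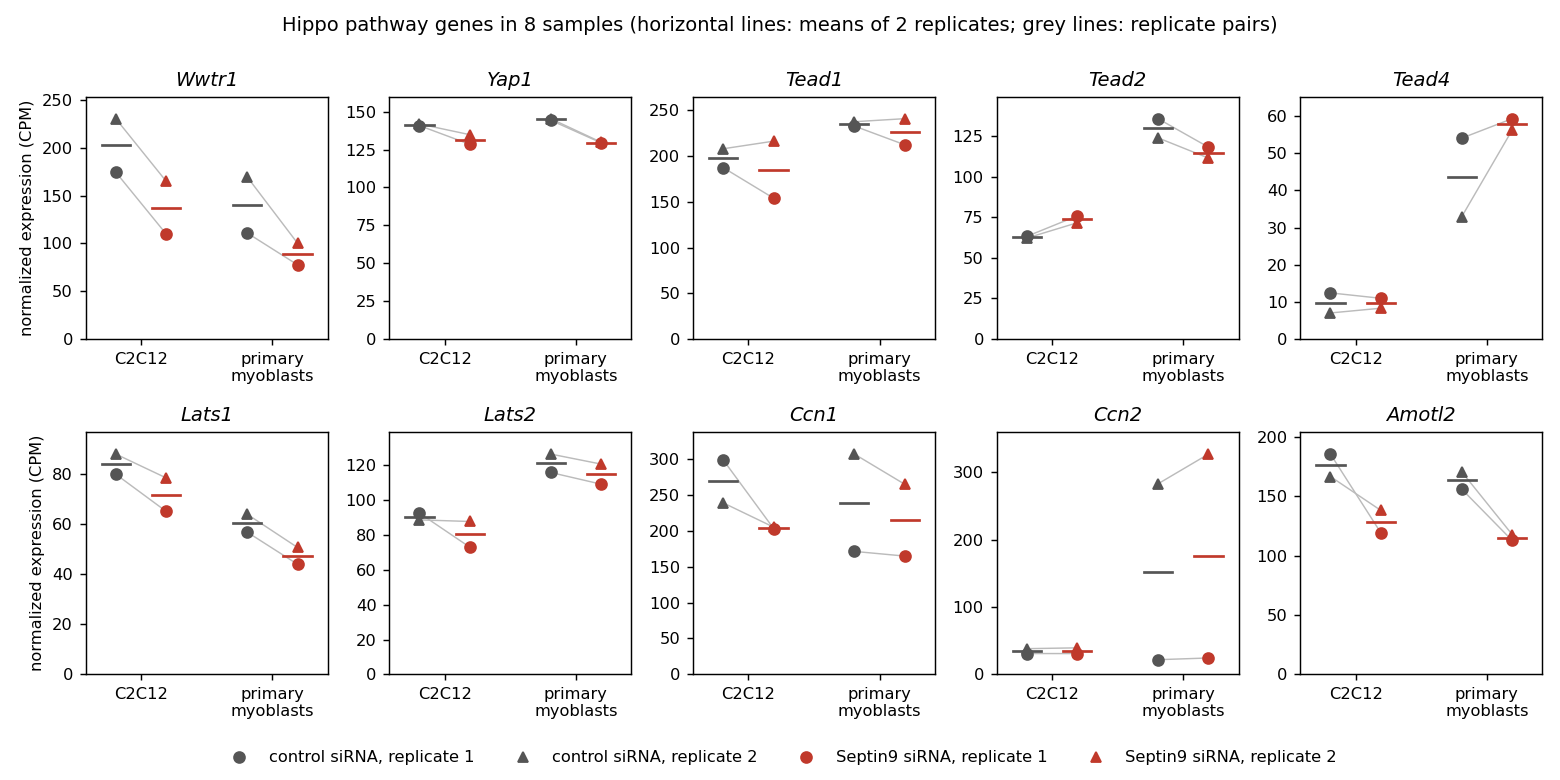
Normalized expression (CPM, TMM-scaled within each cell type, linear axes from 0) of the 10 genes in control (grey) and Septin9-deficient (red) samples, with circles for replicate 1, triangles for replicate 2, grey lines joining pairs and horizontal bars for the means of 2 replicates. Wwtr1 and Amotl2 lie lower in every Septin9-deficient sample than in every control of the same cell type, Yap1 hardly differs, and Ccn2 in primary myoblasts differs far more between replicates (21.9 and 283 CPM in control) than between siRNAs.

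The transcripts of the 10 genes were searched for the sequence through which the siRNA could pair outside Septin9. A small RNA can lower transcripts that match bases 2 to 8 of its guide strand, the seed, as a microRNA does. Its guide strand was derived as the reverse complement of the 19 bases given for the siRNA. The guide strand, the Septin9 target in the coding sequence (chr11:117356354-117356372, plus strand) and the matching 19 bases of Wwtr1 (chr3:57457267-57457285, minus strand) and Amotl2 (chr9:102733267-102733285, plus strand), all in GRCm38 and all 5′ to 3′ with T for U, are shown because these are the members that carry the match. Capitals mark the seed in the guide strand and the complementary heptamer GACGTGT in the transcripts.
Septin9 siRNA guide strand: tACACGTCaatgccgttgg
Septin9 target: ccaacggcattGACGTGTa
Wwtr1 3′ UTR site: aaggcaagcaaGACGTGTg
Amotl2 3′ UTR site: ccaaagaccatGACGTGTg

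The Wwtr1 site begins 1652 bases after the stop codon and is present in 2 of 2 coding transcripts of the GENCODE annotation, and it shares 8 of 19 bases with the siRNA target. The Amotl2 site begins 1572 bases after the stop codon, again in 2 of 2 coding transcripts, and shares 14 of 19 bases. The other 8 genes had no copy of the heptamer in the annotated transcripts searched. Among them, the Septin9-deficient samples of Yap1 and Lats1 lay below their controls in both cell types. Septin9-deficient samples lay below all controls for 12.7% of all genes in C2C12 cells and for 14.8% in primary myoblasts. A match of 7 bases is a description and does not show that the siRNA binds there.

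Over all genes, those with the heptamer lay lower. Of 12231 tested genes with a 3′ UTR in C2C12 cells, 403 (3.29%) carried it there, and their median log2 fold change was -0.12, against -0.00 for the 11828 without it. In primary myoblasts 439 of 13144 genes (3.34%) carried it, with medians of -0.12 and 0.01. A log2 fold change below 0 was seen in 75.4% of the genes with the heptamer in C2C12 cells and in 66.7% in primary myoblasts, against 50.0% and 48.7% of those without it. At least 1.5-fold lower with an edgeR adjusted p-value under 0.05 were 24 genes with the heptamer (5.96%) in C2C12 cells, against 0.59% without it. In primary myoblasts these were 19 genes (4.33%, Wwtr1 among them) against 0.17%. Higher at the same thresholds were 0.50% against 0.91% in C2C12 cells and 1.14% against 2.86% in primary myoblasts. Septin9 itself was left out of these shares. Wwtr1 ranked 32nd from the lowest among the 403 genes in C2C12 cells and 20th among the 439 in primary myoblasts, and Amotl2 ranked 47th and 44th. The rank of Wwtr1 uses the log2 fold change by which the group was chosen, so nothing is read from it. The part of the heptamer in the lower levels of Wwtr1 and Amotl2 was not tested, and with 1 siRNA it cannot be told apart from that of Septin9.

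**Figure D2:**
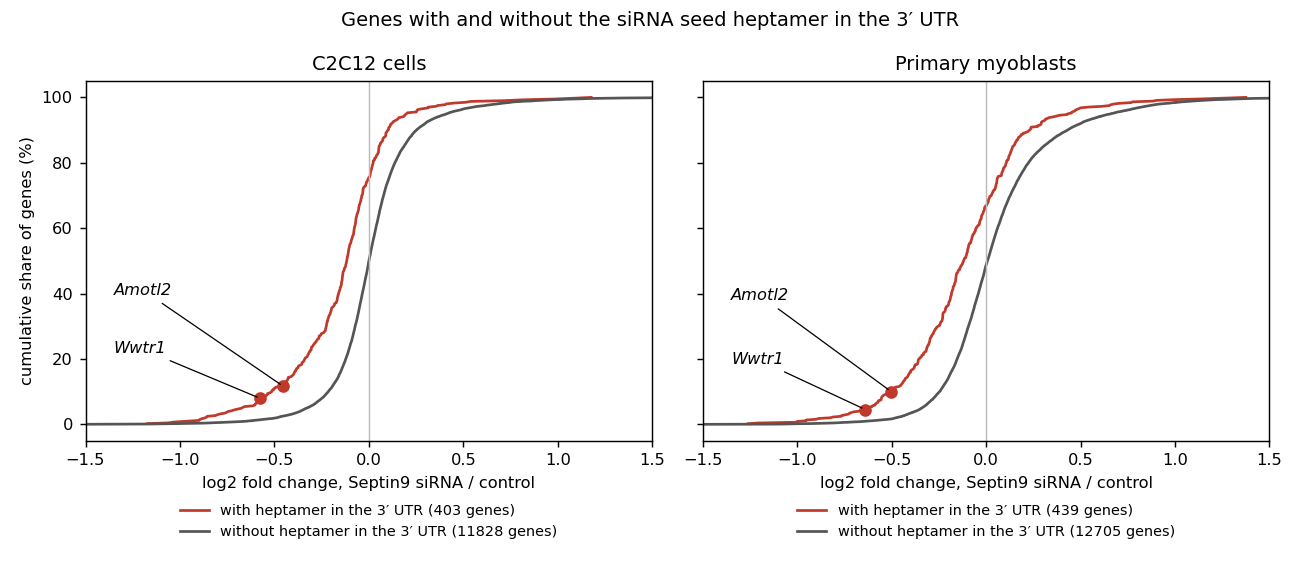
Cumulative share of genes (%) against the log2 fold change of Septin9-deficient over control samples, for genes with (red) and without (grey) the heptamer complementary to the siRNA seed in the 3′ UTR, with Wwtr1 and Amotl2 marked (axis cut at -1.5 and 1.5). The red curve lies to the left of the grey one in both cell types, with medians of -0.12 in each.

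Ccn1, Ccn2 and Amotl2 are target genes of Yap1 and Taz. Ccn1 (also Cyr61) and Ccn2 (also Ctgf) encode secreted matricellular proteins, and Amotl2 encodes an angiomotin that binds Yap1 and promotes its inhibition. On chromosome 3 Ccn1 lies from 145646971 to 145649985, on chromosome 10 Ccn2 from 24595442 to 24598683, and on chromosome 9 Amotl2 from 102717091 to 102733418. Amotl2 was expressed at 185 and 167 CPM (control) and 119 and 138 CPM (Septin9-deficient) in C2C12 cells, and at 156 and 171 CPM (control) and 113 and 118 CPM (Septin9-deficient) in primary myoblasts. The groups did not overlap in either cell type, and the log2 fold changes were -0.45 ± 0.08 and -0.50 ± 0.11 (SE), or 73.0% and 70.6% of control.

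The 3 target genes did not share 1 pattern. Ccn1 was at 299 and 239 CPM (control) and 203 and 205 CPM (Septin9-deficient) in C2C12 cells, without overlap, and its log2 fold change was -0.39 ± 0.08 (SE). In primary myoblasts Ccn1 was at 171 and 307 CPM (control) and 165 and 265 CPM (Septin9-deficient), which overlapped, with a log2 fold change of -0.14 ± 0.12. Ccn2 was at 31.0 and 38.3 CPM (control) and 31.0 and 39.5 CPM (Septin9-deficient) in C2C12 cells, a log2 fold change of 0.02 ± 0.08. In primary myoblasts Ccn2 was at 21.9 and 283 CPM (control) and 24.4 and 327 CPM (Septin9-deficient), and its log2 fold change within pairs was 0.19 ± 0.12. Of the 3 targets, Amotl2 alone was without overlap between siRNAs in both cell types.

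The Tead genes encode the DNA-binding partners of Yap1 and Taz. Tead1 (112679356 to 112906784) and Tead2 (45215792 to 45233468) lie on chromosome 7, and Tead4 on chromosome 6 (128227143 to 128300813). Tead1 was at 187 and 208 CPM (control) and 154 and 216 CPM (Septin9-deficient) in C2C12 cells, and at 233 and 238 CPM (control) and 212 and 241 CPM (Septin9-deficient) in primary myoblasts. Its groups overlapped in both cell types, and the log2 fold changes were -0.11 ± 0.08 and -0.06 ± 0.12 (SE). Tead2 was at 63.3 and 62.2 CPM (control) and 75.9 and 71.7 CPM (Septin9-deficient) in C2C12 cells, but at 136 and 124 CPM (control) and 118 and 112 CPM (Septin9-deficient) in primary myoblasts. It thus lay above its controls in the one cell type (log2 fold change 0.23 ± 0.07) and below them in the other (-0.18 ± 0.11). Tead4, a factor with known roles in myogenic differentiation, was at 12.4 and 7.02 CPM (control) and 10.96 and 8.29 CPM (Septin9-deficient) in C2C12 cells, with a log2 fold change of 0.02 ± 0.14. In primary myoblasts Tead4 was at 54.1 and 32.9 CPM (control) and 59.3 and 56.3 CPM (Septin9-deficient). The log2 fold change there was 0.45 ± 0.13, of which pair 1 gave 0.13 and pair 2 gave 0.77.

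Lats1 (chromosome 10, 7681200 to 7716461) and Lats2 (chromosome 14, 57689662 to 57746212) encode the kinases that inactivate Yap1 and Taz. Lats1 was at 79.8 and 87.8 CPM (control) and 64.9 and 78.3 CPM (Septin9-deficient) in C2C12 cells, and at 56.7 and 63.9 CPM (control) and 43.9 and 50.6 CPM (Septin9-deficient) in primary myoblasts. The Septin9-deficient samples were below all controls in both cell types, with log2 fold changes of -0.23 ± 0.07 and -0.35 ± 0.11 (SE). A further entry of Lats1 in the matrix holds between 99.1% and 99.9% as many counts as the Lats1 entry in every sample, so the level of Lats1 is uncertain. Lats2 was at 92.6 and 88.7 CPM (control) and 73.0 and 87.8 CPM (Septin9-deficient) in C2C12 cells, where pair 1 gave a log2 ratio of -0.34 and pair 2 of -0.02. In primary myoblasts Lats2 was at 116 and 126 CPM (control) and 109 and 121 CPM (Septin9-deficient), with overlap and a log2 fold change of -0.08 ± 0.11.

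**Figure D3:**
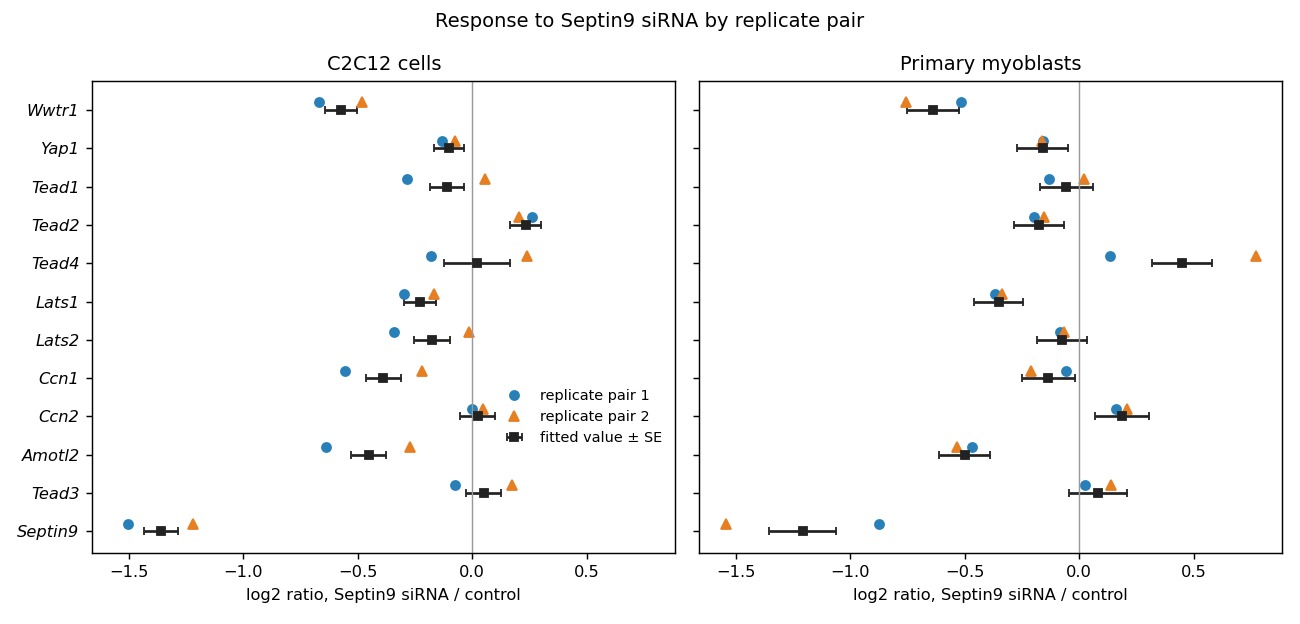
Log2 ratio of Septin9-deficient to control expression in replicate pair 1 (blue) and pair 2 (orange), with the fitted log2 fold change and its standard error (black), for the 10 genes, Tead3 and Septin9 in C2C12 cells (left) and primary myoblasts (right). Wwtr1 and Amotl2 are left of 0 in all 4 pairs, and Tead2 is right of 0 in both C2C12 pairs and left of 0 in both primary myoblast pairs.

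DEGs were genes at least 1.5-fold changed and with an adjusted p-value under 0.05 in edgeR's quasi-likelihood test. In C2C12 cells none of the 10 genes was a DEG (0 of 10, against 1.57% of all genes tested), 6 had an unadjusted p-value under 0.05 (18.7% of all genes), and DESeq2 called 0. Without the fold threshold, Wwtr1, Ccn1 and Amotl2 (lower) and Tead2 (higher) passed, against 6.75% of all genes. Tead2 did not pass in any of the 8 alternative fits, and in the joint fit of all 8 samples Wwtr1 alone passed. In primary myoblasts Wwtr1 was the only DEG, against 3.17% of all genes and 0.298% called lower. Wwtr1 was not called when pair 2 was left out, where its fold change came to less than 1.5-fold. Without the fold threshold Wwtr1 and Amotl2 passed, against 4.99% of all genes. With RLE factors Wwtr1 alone passed there. Since Wwtr1 chose the group, nothing is read from these counts. The median log2 fold change over the 10 genes was -0.14 in C2C12 cells and -0.15 in primary myoblasts, against -0.00 and 0.01 over all genes. In C2C12 cells 6 of 10 genes had both Septin9-deficient samples below both controls, as had 12.7% of all genes, and in primary myoblasts 5 of 10, as had 14.8% of all genes. Both Septin9-deficient samples lay above both controls for Tead2 in C2C12 cells, as for 13.1% of all genes, and for Tead4 in primary myoblasts, as for 13.4%.

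The responses of the cell types were compared by an interaction term in 1 model of the 8 samples. For none of the 10 genes did it pass an adjusted p-value of 0.05 (0 of 17918 genes in edgeR, 0%), while 1469 genes (8.2%) and 1 of the 10, Tead2, had an unadjusted p-value under 0.05. DESeq2 called 17 genes in all and none of these 10. Tead2 had the interaction with the smallest p-value, with a log2 difference of -0.42 ± 0.11 (SE, primary myoblasts minus C2C12 cells; edgeR adjusted p = 0.365). For Amotl2 the difference was -0.06 ± 0.14 (edgeR adjusted p = 0.975), which does not show that its responses were equal. For Wwtr1, which chose the group by its response in both cell types, the difference was -0.07 ± 0.13 and is given without a test. When primary myoblast pair 1 was left out, the log2 fold changes in primary myoblasts were -0.17 for Tead2 and 0.75 for Tead4, against -0.18 and 0.45 with both pairs.

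The control samples alone were compared next, to describe the pathway in the 2 cultures without the siRNA target changed. This comparison was not used to choose the genes, and in it the cell type and the culture condition (12 h of differentiation against proliferation) cannot be told apart. Tead2 and Tead4 were higher in primary myoblasts, and the other 8 genes were not called. Per kilobase of annotated exon, Tead2 was at 17.2 and 17.5 CPM in control C2C12 cells and 40.3 and 36.6 CPM in control primary myoblasts, 2.21-fold higher (log2 difference 1.15 ± 0.13 SE, edgeR adjusted p = 0.00754). Tead4 was at 3.30 and 1.93 CPM per kilobase in C2C12 cells but at 15.6 and 9.48 in primary myoblasts, 4.82-fold higher (log2 difference 2.27 ± 0.38, edgeR adjusted p = 0.0150). With 2 of 10 called, the group was not above the 33.3% of all genes called in this comparison. Both calls were lost when either C2C12 control was left out, with edgeR adjusted p-values from 0.0519 to 0.0923 and log2 differences that remained between 1.12 and 2.69.

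Lats2 was 1.43-fold higher in primary myoblasts (log2 difference 0.52 ± 0.13, edgeR adjusted p = 0.0392), which is under the 1.5-fold threshold. The log2 difference was -0.44 ± 0.27 for Wwtr1 (edgeR adjusted p = 0.267), 0.13 ± 0.13 for Yap1 (adjusted p = 0.463) and 0.35 ± 0.15 for Tead1 (adjusted p = 0.127). Ccn2 had a mean 4.69-fold higher in primary myoblasts, but its replicates there differed so much that the difference was not resolved (log2 difference 2.23 ± 1.12, edgeR adjusted p = 0.182). It passed without primary myoblast control 1 and turned to -0.58 without control 2. Tead3, the remaining member of the Tead family, was 2.28-fold higher in C2C12 cells (edgeR adjusted p = 0.0125), so the family members differed in opposite directions. The matrix has 2 entries of Tead3 with nearly equal counts, and its level is uncertain.

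The order of the levels per kilobase of exon in control C2C12 cells was Ccn1 (mean of 129 CPM per kilobase), Wwtr1 (41.1), Amotl2 (38.2), Yap1 (32.8), Tead1 (19.1), Tead2 (17.4), Lats2 (13.6), Ccn2 (12.1), Lats1 (11.1) and Tead4 (2.61). The replicate values of the neighbours Wwtr1 and Amotl2, Lats2 and Ccn2, and Ccn2 and Lats1 overlapped, and those of the other neighbours did not. In control primary myoblasts it was Ccn1 (123), Ccn2 (56.9), Tead2 (38.5), Amotl2 (37.9), Yap1 (35.97), Wwtr1 (30.4), Tead1 (24.2), Lats2 (19.4), Tead4 (12.6) and Lats1 (8.56). Here Ccn2 ranged from 8.18 to 106 CPM per kilobase and overlapped with its neighbours, as did Tead2 with Amotl2, and Wwtr1 with Yap1 and Tead1. Transcripts of both coactivators, of Tead1, Tead2 and Tead4 and of both kinases were thus detected in both cultures, and Tead4 was the lowest in C2C12 cells.

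**Figure D4:**
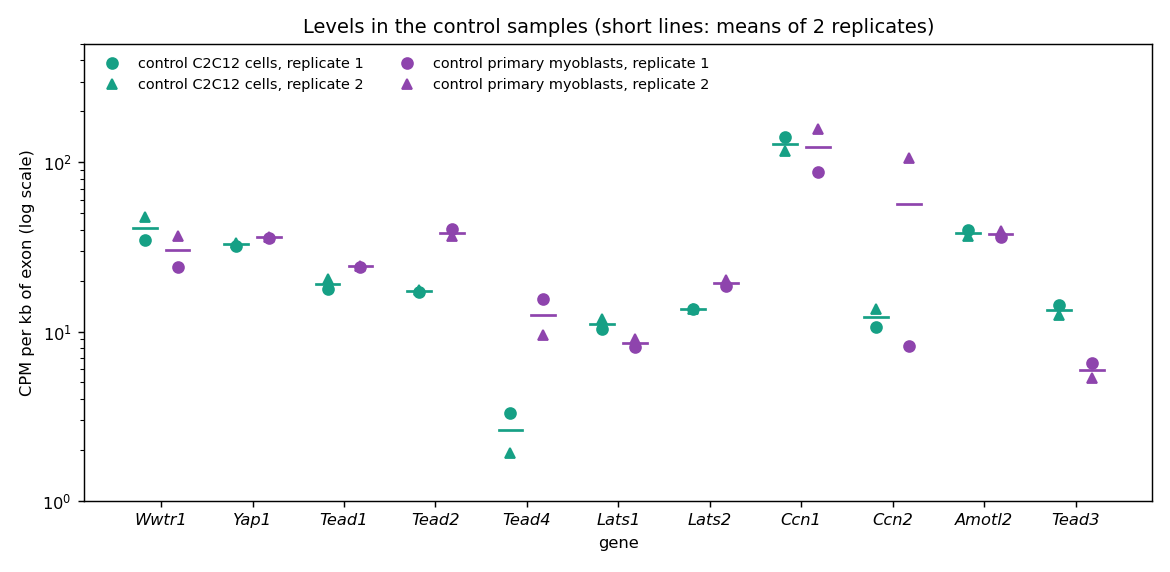
Level of the 10 genes and Tead3 in the control samples, in CPM per kilobase of annotated exon on a log axis, with circles for replicate 1, triangles for replicate 2 and short lines for means (C2C12 green, primary myoblasts purple). Tead2 and Tead4 are higher in both primary myoblast samples than in both C2C12 samples, Tead3 is lower, and Ccn2 in primary myoblasts spans 8.18 to 106.

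Ccn2 and Ccn1 differed between the independent experiments with primary myoblasts. This comparison, of replicate 2 with replicate 1 in the fit with both siRNAs, was made after the values had been seen. It has a single experiment on each side, so its p-values do not show how much independent experiments vary. Ccn2 was 13.2-fold higher in replicate 2 (log2 difference 3.72 ± 0.13 SE, edgeR adjusted p = 2.21e-13) and Ccn1 was 1.70-fold higher (0.76 ± 0.12, edgeR adjusted p = 7.73e-05), in the control and in the Septin9-deficient pair alike. These were 2 of the 10 genes, against 15.9% of all genes at the same thresholds. Amotl2, the third target gene, differed by 0.10 ± 0.11 (edgeR adjusted p = 0.593), and Yap1 by 0.01 ± 0.11 (edgeR adjusted p = 0.974).

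The fibroblast markers moved with Ccn2. In primary myoblasts their summed level in replicate 1 was 8.41 CPM with control siRNA and 6.55 CPM with Septin9 siRNA, and in replicate 2 it was 299 and 437 CPM. Of the 5 markers, Col1a1, a collagen gene, was at 6.65 CPM in control 1 and 246 CPM in control 2, Pdgfra at 1.00 and 31.3 CPM, and Thy1 at 0.502 and 8.45 CPM. All 5 were higher in replicate 2 than in replicate 1 with either siRNA, Lum being at 0 in both samples of replicate 1, and the part of non-myogenic cells in the Ccn2 level was not tested. In bulk RNA, more cells of a type and more RNA per cell cannot be told apart.

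Wwtr1 also differed between the experiments. It was 1.41-fold higher in replicate 2 of C2C12 cells (log2 difference 0.49 ± 0.07, edgeR adjusted p = 1.52e-05) and 1.41-fold higher in replicate 2 of primary myoblasts (0.49 ± 0.11, edgeR adjusted p = 0.00293). In C2C12 cells Tead4 was 0.653 times as high in replicate 2 as in replicate 1 (edgeR adjusted p = 0.00248) and was the only one of the 10 past the 1.5-fold threshold, against 11.3% of all genes. Whether number 1 or 2 marks the same experiment in both cell types is not given in the sources used here.

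**Figure D5:**
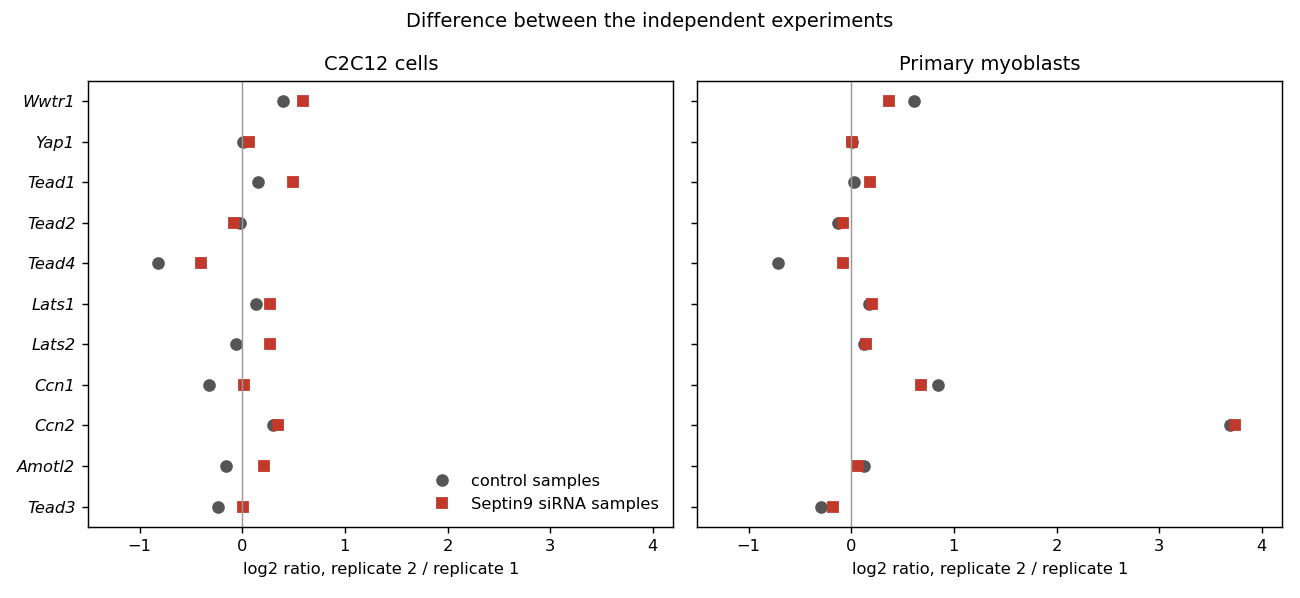
Log2 ratio of replicate 2 to replicate 1 for the 10 genes and Tead3 in control (grey circles) and Septin9-deficient samples (red squares) of C2C12 cells (left) and primary myoblasts (right). Ccn2 in primary myoblasts stands at 3.69 in control and 3.74 in Septin9-deficient samples, and Wwtr1 lies right of 0 in both cell types.

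Among 10559 genes with a mean of at least 10 CPM, those most like Wwtr1 were sought by Pearson's correlation of log2 CPM over the 8 samples, centred within each cell type. The highest were Fam118a (r = 0.987), Chsy1 (r = 0.986), Ptpn1 (r = 0.984), Msl2 (r = 0.981) and Tbc1d16 (r = 0.976), of which Msl2 carries the siRNA heptamer in its 3′ UTR. Lats1 ranked 6th (r = 0.976), Yap1 192nd (r = 0.855), Amotl2 251st (r = 0.838) and Lats2 283rd (r = 0.828), whereas Ccn2 ranked 2418th (r = 0.444), Tead2 7445th (r = -0.300) and Tead4 10227th (r = -0.784). These are descriptions over 8 samples that share the siRNA and the experiments, and in both cell types Wwtr1 was higher in replicate 2 than in replicate 1 with the same siRNA.

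Tead factors recognise the letters GGAATG, read CATTCC on the other strand, and these were sought in the RefSeq promoters of GRCm38.p6, from 250 bases before to 50 bases after each start. Promoters were matched for 7 of the 10 genes, all but Tead1, Tead4 and Ccn2. The letters were held by 5 of the 7 genes (Wwtr1, Yap1, Ccn1, Amotl2 and Lats2). Of their 9 promoters 6 held them, of which the 2 of Wwtr1 overlap and share 1 site, whereas 14.7% of all 32851 promoters did. The windows of the coactivators and of the matched target genes are shown 5′ to 3′ on the strand of the gene, with the letters in capitals, because Yap1 and Taz act through Tead at such sequences: Wwtr1 (chr3:57576029-57576058, minus strand), Yap1 (chr9:8004720-8004749, minus strand), Ccn1 (chr3:145650071-145650100, minus strand) and Amotl2 (chr9:102717727-102717756, plus strand). A match is a description and not a bound site, and binding was not measured.
Wwtr1: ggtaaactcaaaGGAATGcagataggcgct
Yap1: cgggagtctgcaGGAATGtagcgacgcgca
Ccn1: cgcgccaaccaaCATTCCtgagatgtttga
Amotl2: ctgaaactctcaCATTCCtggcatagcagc

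Upstream of the kinases, 25 further Hippo genes were examined (kinases and scaffolds such as Stk3, Stk4, Sav1 and Mob1a, junction proteins and Fat cadherins). None was a DEG in either cell type. The share of DEGs among all genes was 1.57% (C2C12) and 3.17% (primary myoblasts), so nothing is read from this count. Negative log2 fold changes were seen in 17 of 25 (C2C12) and 15 of 25 (primary myoblasts). The shares of all tested genes with a 3′ UTR were 50.9% and 49.3%. In C2C12 cells the median was -0.07, and 5 of 25 passed the adjusted p-value alone (6.75% of all genes), all lower. They were Ptpn14, a phosphatase that binds Yap1 (log2 fold change -0.34, edgeR adjusted p = 0.00493), and the FERM domain protein gene Frmd6 (-0.31, adjusted p = 0.00816). The others were Wwc2 of the Kibra family (-0.29, adjusted p = 0.0163), and the cadherins Fat1 (-0.31, adjusted p = 0.0210) and Fat4 (-0.53, adjusted p = 0.0385). The highest values were those of Dchs1 (0.36) and Mark2 (0.13), which did not pass. In primary myoblasts the median was -0.03 and 2 of 25 passed (4.99% of all genes), Ptpn14 lower (-0.50, edgeR adjusted p = 0.0134) and Amot, the founding angiomotin, higher (0.38, adjusted p = 0.0459). Fat1 (-0.49) and Amotl1 (0.24) did not pass there. These calls depended on the fit. In C2C12 cells none of the 25 passed in the joint fit of all samples, and Frmd6 and Ptpn14 alone passed with DESeq2 and the replicate block. In primary myoblasts none passed with RLE factors, and Ptpn14 alone passed with DESeq2 and the replicate block. With DESeq2 on the deposited adjusted counts Ptpn14, Frmd6 and Fat1 passed in both cell types, Wwc2 in C2C12 cells and Amot in primary myoblasts. Of the upstream genes, Ptpn14 carries 3 copies of the siRNA heptamer in the 3′ UTR of 1 of 2 coding transcripts. Mob1b, with log2 fold changes of 0.11 and 0.23, carries 1 there. In the coding sequence Fat1 carries 3 copies, sharing at most 14 of 19 bases with the siRNA target, and Wwc2, Stk4, Taok2 and Dchs1 carry 1 each. The part of these matches was not tested.

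Of 17 other published target genes of Yap1 and Taz, 16 were tested in C2C12 cells (Fjx1 was filtered out) and 17 in primary myoblasts. Ptpn14 belongs to the same published set but was counted with the upstream genes, so it is left out of these counts. Log2 fold changes were negative for 11 of 16 and 9 of 17, against 50.9% and 49.3% of all tested genes with a 3′ UTR. Both Septin9-deficient to control ratios were below 1 for 7 and above 1 for 2 of these target genes in C2C12 cells, and for 4 and 5 in primary myoblasts. No share of all genes stands beside these pair counts, so nothing is read from them. In C2C12 cells F3, the gene of tissue factor, was the 1 DEG of 16 (1.57% of all genes), with 34.8 and 45.7 CPM (control) and 22.3 and 26.4 CPM (Septin9-deficient) (log2 fold change -0.72 ± 0.08, edgeR adjusted p = 1.21e-05). It was not called without pair 2. Crim1 (-0.43, edgeR adjusted p = 0.00177) and Ankrd1 (-0.37, edgeR adjusted p = 0.00298), both lower, passed without the fold threshold (3 of 16 with F3, against 6.75% of all genes), the median of the list was -0.05, and the highest values, of Nt5e (0.57) and Igfbp3 (0.22), did not pass. In primary myoblasts Gadd45a, a stress-induced growth arrest gene, was the 1 DEG of 17 (3.17% of all genes) and was higher, at 246 and 106 CPM (control) and 369 and 181 CPM (Septin9-deficient) (0.68 ± 0.12, edgeR adjusted p = 0.00229). Crim1 was lower there too (-0.46, edgeR adjusted p = 0.0186), whereas Tgfb2 (-0.44) and Nt5e (0.62) did not pass, and the median was -0.06. Ankrd1 had a log2 fold change of 0.03 in primary myoblasts. In the joint fit of all samples F3 alone passed in C2C12 cells. With RLE factors, or with DESeq2 and the replicate block, Gadd45a alone passed in primary myoblasts. Of the target list, Arhgef17 alone carries the siRNA heptamer in its 3′ UTR, and its log2 fold changes were -0.14 and 0.09. Ccdc80 carries 1 copy in the coding sequence, while Crim1 carries none.

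The Vgll genes encode cofactors that compete with Yap1 and Taz for Tead. Vgll2, a muscle-expressed cofactor, was the one with the largest difference between the controls, at 0.690 and 0.891 CPM per kilobase in C2C12 cells but at 13.6 and 10.3 in primary myoblasts (log2 difference 3.90 ± 0.29, edgeR adjusted p = 0.00398). Vgll4 was 2.71-fold higher in control C2C12 cells (edgeR adjusted p = 0.00826), and Vgll3 differed by -0.01 ± 0.17. In Septin9-deficient primary myoblasts Vgll2 was higher than in control (21.6 and 16.4 CPM in control, 28.4 and 25.8 CPM after Septin9 siRNA, log2 fold change 0.52 ± 0.12, edgeR adjusted p = 0.0191). That is under the 1.5-fold threshold, and 4.99% of all genes passed the adjusted p-value alone there. In C2C12 cells Vgll2 was at 1.19 and 1.49 CPM (control) and 1.54 and 2.22 CPM (Septin9-deficient). Its log2 fold change of 0.48 ± 0.29 at these low levels did not pass. Vgll3 and Vgll4 did not pass after Septin9 siRNA in either cell type, and Vgll1 was at 0 counts in all 8 samples.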

How the data were processed

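RNA of 8 samples was sequenced as paired-end reads. The authors mapped them to GRCm38.p6 with STAR 2.7.2 and deposited raw read counts per gene from featureCounts 2.0.1, whose strand setting is not given in the sources used here. They also deposited, for each cell type, a normalized signal from ComBat-Seq adjusted counts and DESeq2 1.40.1 size factors, whose values were whole multiples of 1 read in 100% of cases (tolerance 0.01) and were used in an alternative only. The 10 genes and all lists were chosen with earlier results of these data known.

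Lines broken in the raw counts (16, over 5 genes) were left out. Further entries of a gene, named by its symbol and a number (2379 of 42391 entries), were kept. The read totals, the fits and the shares of all genes tested therefore include such entries. Each cell type was fitted in edgeR 4.0.16 (R 4.3.3) with TMM, filterByExpr and the replicate number as a block, since the methods name independent experiments as the replicates. Deviations of same-numbered samples from their group means correlated across genes at 0.678 (C2C12 cells) and 0.820 (primary myoblasts). P-values were adjusted by Benjamini-Hochberg over all genes. In the siRNA and interaction fits they rest on how far the siRNA difference varied between the 2 experiments per cell type. The spread of each gene was drawn towards that of all genes, so an SE is not the spread of that gene's own pairs. For Yap1 in primary myoblasts the pairs gave log2 ratios of -0.157 and -0.163, with an SE of 0.11. For Septin9 there they gave -0.87 and -1.54, with an SE of 0.15. In the control comparison the p-values rest in the same way on the spread between the 2 control samples per cell type. Those of replicate 2 against replicate 1 rest on the spread left in the siRNA fits and do not measure the spread between independent experiments. CPM are TMM-scaled within a fit, so control values differ slightly between comparisons, while marker CPM use library size alone. Pair ratios used a prior count of 2. Levels per kilobase use the union of annotated exons, which may exceed the transcripts expressed. The control comparison used the 4 control samples, and the interaction all 8 with the replicate nested in cell type. Named genes are the 10 genes, Septin9, Tead3 and the Vgll genes, list genes that passed or lay among the 2 highest and 2 lowest, and the 5 genes most like Wwtr1. The heptamer was sought in transcripts of GENCODE release 21 (3′ UTRs of at least 20 bases). Alternatives were RLE factors, no low-count filter, no block, DESeq2 1.42.0, a joint fit, no fold threshold and leaving out each replicate. The fits were tested on simulated data. Python 3.11.15 was used for the other steps.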

Additional observations from a re-analysis of the deposited data

Results flagged for a closer look

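Tead2 was the one gene of the 10 whose responses to Septin9 siRNA had opposite signs in every replicate pair of the 2 cell types, with log2 ratios of 0.26 and 0.20 (C2C12 cells) against -0.20 and -0.15 (primary myoblasts). The difference of the responses was -0.42 ± 0.11 on the log2 scale (SE), which did not pass adjustment over all genes (edgeR adjusted p = 0.365, DESeq2 adjusted p = 0.556).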

How the results depend on the processing

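The directions of the Wwtr1 and Amotl2 differences after Septin9 siRNA held in all 9 settings in each cell type, with log2 fold changes from -0.65 to -0.50 and from -0.78 to -0.50 for Wwtr1 and from -0.62 to -0.28 and from -0.55 to -0.45 for Amotl2, in C2C12 cells and primary myoblasts. Counts of calls depended on the settings. Without the replicate block, no gene of the matrix was called in either cell type, so the 1 member and the 1 target gene called in primary myoblasts and the 1 target gene called in C2C12 cells became 0. Without the fold threshold the calls were 4 members, 5 upstream genes and 3 target genes for C2C12 cells, against 2, 2 and 2 for primary myoblasts. Without the low-count filter 1 member was called in C2C12 cells (Wwtr1). With 1 pair left out, in the fit of all 8 samples where the single remaining pair is assumed to vary like the other pairs, calls in C2C12 cells ranged from 0 to 1 for members and from 0 to 1 for target genes. In primary myoblasts the calls of members, upstream genes and target genes also changed when a pair was left out. Calls for a difference in response changed too, for members and over all genes. Members called between the controls ranged from 0 to 3 when 1 control was left out, and were 2 with a replicate block across cell types. Over all genes, DEGs numbered 248 in C2C12 cells and 543 in primary myoblasts, but 100 and 226 with DESeq2 and the block, 123 and 331 with DESeq2 on the deposited adjusted counts, 83 and 378 in the joint fit, and 260 in primary myoblasts with RLE factors. Without pair 1 or 2 they numbered 98 and 181 (C2C12 cells) or 926 and 358 (primary myoblasts).

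Some differences between the controls changed sign. That of Ccn1 (-0.07) ranged from -0.57 to 0.26 when 1 control was left out and became 0.06 without C2C12 control replicate 1 and 0.26 without primary myoblast control replicate 1. That of Ccn2 ranged from -0.58 to 3.11, becoming -0.58 without primary myoblast control replicate 2. That of Amotl2 (-0.01) became 0.0092 with RLE factors and ranged from -0.092 to 0.029 when 1 control was left out, becoming 0.028 without C2C12 control replicate 1 and 0.029 without primary myoblast control replicate 1. The causes were not tested. With 2 experiments per cell type, differences as small as those of Yap1 and Lats2 could not be resolved, and counting error adds to the spread of Tead4 in C2C12 cells.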
